A study of Mus musculus with 8 samples.

Results

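Mouse embryonic stem (ES) cells that carried shRNAs against Mp1 and were cultured with FGF4 were compared with control shRNA cells kept in LIF, the self-renewal condition of the study, on 4 of its 8 Illumina arrays. The arrays were chosen by their titles, those of FGF4 cells with shMp1Lib or shMP1G (the Mp1 shRNAs) against those of LIF cells with shRnd1 or shRnd2 (the control shRNAs). All cells were of the R1 line, FGF4-/-, of the strains 129X1/SvJ with 129S1/SV-+p+Tyr-cKitlSl-J/+. After a night in N2B27, a medium free of serum, to which BMP4 was added at 10 ng/ml, the factors were given and RNA was profiled at day 3, the Mp1 shRNA cells with FGF4 at 20 ng/ml and the LIF cells with LIF at 10 u/ml. The other 4 arrays were control shRNA cells (shRnd1 and shRnd2) in FGF4 at 20 ng/ml and control shRNA cells with no growth factor. Factor and shRNA both differ between the Mp1 shRNA and LIF arrays, so their parts cannot be told apart in that comparison. Each Mp1 array carries its own shRNA vector, and nothing in the labels says that the arrays of a group were separate cultures, so the p-values below reflect the spread between arrays, which may be technical.

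LIF acts through the receptor subunits LIFR and gp130 and the transcription factor STAT3, and with BMP4 it holds mouse ES cells in the naive state, marked by factors such as Klf2, Klf4 and Tbx3. FGF4, which ES cells normally make themselves, acts through FGF receptors, RAS and the kinases MEK and ERK, and moves the cells towards the formative and primed epiblast, marked by Pou3f1 and Dnmt3b. MP1, the product of Lamtor3, is a scaffold that binds MEK1 and ERK1 on late endosomes and is a subunit of the Ragulator complex with Lamtor1, Lamtor2, Lamtor4 and Lamtor5.

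Detected probes numbered 17813 with shMp1Lib, 16122 with shMP1G and 15375 to 16471 on the control shRNA arrays, of 45281. The pooled SD of a feature within a group came to 0.438 log2 units between the Mp1 shRNA arrays, 0.213 for control shRNAs in FGF4, 0.293 for LIF and 0.184 for no factor. The knockdown could not be read: the named Lamtor3 probe had an intensity of 71.2 and 63.0 with shMp1Lib and shMP1G, and 63.8 and 64.3 in LIF, with a detection p-value of 0.57 or more on each of the 8 arrays. No probe is named Fgf4 here. The ES cell markers Pou5f1, Dppa5a, Tdgf1 and Utf1, the 4 tested of a list of 8, had summed normalized intensities of 42054 and 41846 in Mp1 shRNA cells and 38878 and 42372 in LIF. Markers of trophoblast (1 of 6 tested), primitive endoderm (5 of 6), feeder fibroblasts (1 of 7) and neural cells (2 of 5) summed to at most 373.9 on these 4 arrays, and no mesoderm marker was tested. The primitive endoderm sums were 373.9 and 339.0 in Mp1 shRNA cells and 226.1 and 197.0 in LIF. The trophoblast marker, Gata3, read 49.4 and 48.6 against 180.0 and 141.8. Sums for feeder fibroblasts and neural cells overlapped between the groups. In bulk samples, fewer cells of a type and less RNA per cell cannot be told apart.

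Genes of LIF and STAT3 signalling were read first, because they bear on the labels of the LIF arrays. Socs3, the STAT3-induced feedback inhibitor of the receptor, had a normalized log2 intensity (its level, below) of 8.21 and 8.04 in Mp1 shRNA cells, 8.17 and 7.91 in control shRNA cells in FGF4, 7.67 and 7.64 on the arrays labelled LIF, and 11.04 and 11.01 on the arrays labelled no factor. The difference between Mp1 shRNA cells and LIF did not pass the threshold (0.48 ± 0.18 log2 units, SE; adjusted p = 0.0917), while against the no-factor arrays Socs3 was lower (-2.90, adjusted p = 7.58e-05). The high Socs3 readings lie on the arrays labelled no factor and not on those labelled LIF. Other genes that cytokines induce also read lower on the LIF than on the no-factor arrays: Bcl3 read 6.37 and 5.76 in LIF against 7.50 and 7.61 without factor, Junb 7.07 and 6.74 against 7.81 and 7.59, and Fos 5.48 and 6.19 against 7.04 and 6.95. Stat3 itself read 5.97 and 5.86 in LIF against 6.71 and 7.28 without factor. Irf1 went the other way (8.92 and 8.79 in LIF against 7.96 and 7.66 without factor), and Pim1 and Cebpb overlapped between these groups. Whether the LIF and no-factor labels were exchanged was not tested and cannot be settled from these files. The treatment note of the labels also gives the Rnd1 shRNA for both LIF arrays, where the titles name shRnd1 for the first and shRnd2 for the second. Groups here follow the titles, LIF and no factor below mean the arrays so labelled, and the counts of each list against the no-factor arrays are given beside those against LIF.

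Of 13 tested members of the LIF/STAT3 list, 2 rose, 2 fell and 9 did not pass in Mp1 shRNA cells against LIF, with a median difference of -0.25 log2 units, against 0.03 over all 14103 features tested. Over all features, 11.1% rose and 8.35% fell in this comparison, at an adjusted p under 0.05. Each list count against LIF below is to be read beside these shares. Those against no factor are to be read beside 8.12% higher and 6.09% lower. Irf1, a transcription factor gene that STAT proteins induce, stood at 10.76 and 10.44 in Mp1 shRNA cells, 10.66 and 10.74 in control shRNA cells in FGF4, 8.92 and 8.79 in LIF and 7.96 and 7.66 without factor. It was higher than in LIF by 1.75 ± 0.20 log2 units (adjusted p = 0.00111). Klf4, a naive pluripotency factor and a known target of STAT3, read 7.31 and 8.31 in Mp1 shRNA cells, 7.63 and 7.76 in control shRNA cells in FGF4, 10.31 and 9.69 in LIF, and 10.35 and 10.09 without factor. Its fall against LIF was -2.19 ± 0.34 (adjusted p = 0.00416), with no overlap between the groups. Where a group was not well above background (a detection p-value of 0.05 or more on both of its arrays), the difference is given as a bound. A gene of that kind passed the filter on dim probes only through the other groups. Myc was at least 1.08-fold higher than in LIF, where it was not well above background (5.63 and 5.76 against 4.89 and 4.89), and Bcl3, a nuclear cofactor of NF-kappaB, was at least 1.64-fold lower (5.06 and 5.12, not well above background, against 6.37 and 5.76). Neither call held in every fit that left out 1 array: Myc was lost without either LIF array (adjusted p up to 0.0857), and Bcl3 without shMp1Lib or the LIF shRnd1 array (up to 0.135).

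The members of the list that did not pass include the pathway's own components. The gp130 gene Il6st read 6.63 and 6.93 in Mp1 shRNA cells and 7.48 and 7.21 in LIF (-0.56, adjusted p = 0.0873), and the receptor gene Lifr read 5.58 and 4.80 against 5.41 and 5.80 (-0.41, adjusted p = 0.29). Stat3 itself read 6.36 and 5.87 against 5.97 and 5.86 (0.20, adjusted p = 0.688). Cish, a further feedback inhibitor of cytokine receptors, read 7.93 and 7.80 in Mp1 shRNA cells, above the 7.31 and 7.35 in LIF without overlap (0.53, adjusted p = 0.0683). Fos (0.09), Pim1 (-0.25), Cebpb (-0.27) and Junb (-0.27) differed by less than 0.3 log2 units, with adjusted p between 0.299 and 0.835. Against the no-factor arrays, 2 of the 13 were higher and 5 lower, against 8.12% and 6.09% of all features.

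Because the members of this list did not move one way, their promoters are shown, from RefSeq's GRCm38.p6 annotation, 250 bases before to 50 after the start of transcription, 5′ to 3′ on the gene's strand. Capitals mark the STAT motif TTCNNNGAA, which reads the same on either strand and was searched on both. Of the 13 tested members, 12 had a promoter in the table and 3 held the motif (Irf1, Socs3 and Cish), against 2726 of 32851 promoters (8.30%) over all genes. The promoter of Klf4 holds no such letters. The first of the Irf1 promoters in the table is shown, and the other holds no motif. The lines below give Socs3 (chr11:117969317-117969616, minus strand), Cish (chr9:107296409-107296708, plus strand), Irf1 (chr11:53769764-53770063, plus strand) and Klf4 (chr4:55532426-55532725, minus strand).
Socs3: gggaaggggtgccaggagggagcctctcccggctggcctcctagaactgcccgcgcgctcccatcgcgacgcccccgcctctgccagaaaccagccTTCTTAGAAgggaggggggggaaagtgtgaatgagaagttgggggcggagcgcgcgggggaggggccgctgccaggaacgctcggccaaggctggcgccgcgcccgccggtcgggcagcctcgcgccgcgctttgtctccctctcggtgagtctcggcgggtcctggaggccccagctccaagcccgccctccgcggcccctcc
Cish: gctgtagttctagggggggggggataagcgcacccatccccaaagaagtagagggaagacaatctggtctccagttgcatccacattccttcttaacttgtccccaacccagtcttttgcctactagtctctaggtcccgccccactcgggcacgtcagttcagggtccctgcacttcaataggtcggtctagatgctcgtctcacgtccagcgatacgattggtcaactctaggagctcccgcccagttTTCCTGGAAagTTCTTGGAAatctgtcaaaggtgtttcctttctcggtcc
Irf1: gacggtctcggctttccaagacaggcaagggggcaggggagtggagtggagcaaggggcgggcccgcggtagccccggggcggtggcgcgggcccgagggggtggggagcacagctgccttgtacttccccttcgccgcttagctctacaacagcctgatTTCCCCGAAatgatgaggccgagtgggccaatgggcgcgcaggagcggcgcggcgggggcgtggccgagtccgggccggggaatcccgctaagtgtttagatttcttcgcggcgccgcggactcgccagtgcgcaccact
Klf4: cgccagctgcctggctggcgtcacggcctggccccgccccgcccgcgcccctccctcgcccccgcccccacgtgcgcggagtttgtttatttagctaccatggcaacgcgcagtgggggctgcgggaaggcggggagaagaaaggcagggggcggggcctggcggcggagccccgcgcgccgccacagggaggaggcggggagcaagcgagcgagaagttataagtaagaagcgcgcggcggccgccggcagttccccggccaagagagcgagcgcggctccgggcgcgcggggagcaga
A match is a description of these letters. Of the 3 genes with the motif, Irf1 was higher in Mp1 shRNA cells than in LIF, and Socs3 and Cish did not pass, while Klf4, without the motif in this window, was lower.

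The distance between arrays was taken as the root mean square difference of their levels over all 14103 features. The shMp1Lib array lay 1.065 and 0.859 log2 units from the LIF shRnd1 and shRnd2 arrays, and the shMP1G array 0.72 and 0.616. The Mp1 shRNA arrays lay 0.62 from each other and the LIF arrays 0.415 from each other. The shMP1G array was thus about as far from the LIF shRnd2 array as from the other Mp1 shRNA array, whereas shMp1Lib was farther from both LIF arrays than from shMP1G. From the control shRNA arrays in FGF4, shMP1G was 0.352 and 0.376 away and shMp1Lib 0.72 and 0.63. From the no-factor arrays, the distances were 0.646 and 0.656 for shMP1G and 0.847 and 0.858 for shMp1Lib. Between group means, Mp1 shRNA cells were 0.744 from LIF, 0.68 from no factor and 0.42 from control shRNA cells in FGF4. Control shRNA cells in FGF4 were 0.684 from LIF. The LIF shRnd2 array lay nearer to both no-factor arrays (0.295 and 0.317) than to the LIF shRnd1 array. These distances carry no test. Without background correction the group mean distance of Mp1 shRNA cells from LIF was 0.539.

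**Figure D1:**
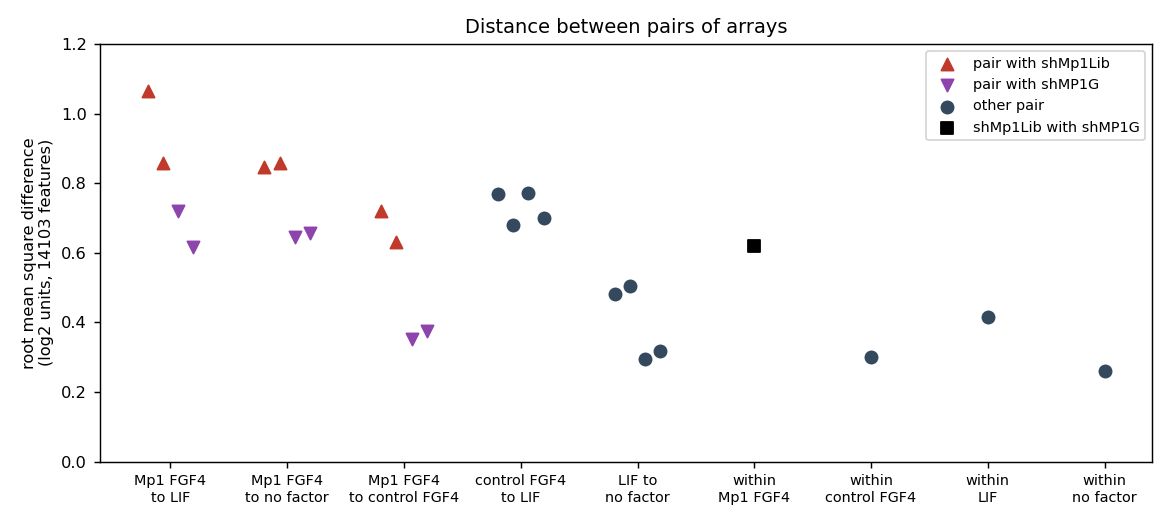
Root mean square difference of normalized log2 intensity over 14103 features (y axis) for each pair of arrays, by the groups the pair joins (x axis). Pairs of shMp1Lib with LIF reach 1.065 and 0.859, pairs of shMP1G with LIF 0.72 and 0.616, and the LIF arrays lie 0.295 to 0.505 from the arrays with no factor.

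In all, 1564 features were higher and 1178 lower in Mp1 shRNA cells than in LIF (19.4% of those tested), 874 and 696 of them by at least 2-fold, and 5358 stood at an unadjusted p under 0.05. With arrays scaled by their medians in place of quantile normalization, which moves the median of all features to -0.129, the split was 1171 higher and 1501 lower. Both Mp1 shRNA arrays were above both LIF arrays for 4453 features (31.6%) and below both for 3989 (28.3%). An exact permutation test of 2 arrays against 2 cannot go below p = 0.333, so single features rest on the spread that limma shares over all arrays and features. The count depends on which arrays are in the fit: without the LIF shRnd1 array 500 were higher and 393 lower, without shMp1Lib 1010 and 862, and without shMP1G 3301 and 2781. Of the 2742 features, 833 (30.4%) kept their call whichever of the 8 arrays was left out. Against the no-factor arrays, Mp1 shRNA cells had 1145 features higher (8.12%) and 859 lower (6.09%). Against control shRNA cells in FGF4 they had 9 higher (0.0638%) and 5 lower (0.0355%), 0.0993% in all, with 2027 features at an unadjusted p under 0.05, and control shRNA cells in FGF4 had 1124 higher (7.97%) and 1088 lower (7.71%) than LIF. These comparisons share arrays.

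Among named genes, Car4 had the largest rise. Car4, a membrane-bound carbonic anhydrase, stood at 11.12 and 11.39 in Mp1 shRNA cells, 11.92 and 11.96 in control shRNA cells in FGF4, 5.88 and 6.47 in LIF, and 4.67 and 4.51 without factor. It was 33.8-fold higher in Mp1 shRNA cells than in LIF (5.08 ± 0.23 log2 units, adjusted p = 3.25e-05). Its promoter (GRCm38.p6, chr11:84957504-84957803, plus strand) is shown because it leads the list and holds the ETS core CCGGAA, the element that ERK-responsive ETS factors such as Etv4 bind. The core occurs once on each strand in overlapping letters, in capitals, and in 4894 of 32851 promoters (14.9%) over all genes.
Car4: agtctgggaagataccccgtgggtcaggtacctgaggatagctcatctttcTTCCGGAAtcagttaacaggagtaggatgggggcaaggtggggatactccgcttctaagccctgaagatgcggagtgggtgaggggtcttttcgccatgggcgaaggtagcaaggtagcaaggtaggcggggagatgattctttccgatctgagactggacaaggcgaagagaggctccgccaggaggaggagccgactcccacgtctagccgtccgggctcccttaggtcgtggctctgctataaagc
Among the formative and primed epiblast genes, 7 tested and 4 with a promoter in the table, Car4 is the 1 with this core. Of 15 tested FGF/ERK genes, 8 with a promoter, 1 holds it, Dusp14, which was lower in Mp1 shRNA cells than in LIF. These are counts of genes, whereas the share over all genes above is of promoters. Whether the core bears on the level of Car4 was not tested.

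Slc40a1, which encodes the iron exporter ferroportin, stood at 10.37 and 9.59 in Mp1 shRNA cells and was not well above background in LIF (4.99 and 5.31), at least 21.0-fold higher (adjusted p = 5.72e-05). Esrp1, an epithelial splicing regulator, stood at 10.60 and 10.01 against 5.77 and 6.28 in LIF (4.28 ± 0.25, adjusted p = 7.78e-05). Dusp4, a phosphatase that acts on ERK and is itself induced by ERK, read 9.72 and 9.34 against 5.85 and 5.64 (3.79 ± 0.20, adjusted p = 5.02e-05), with its other probes at 1.27, 2.19 and 2.78. For each of these genes both Mp1 shRNA arrays were far above both LIF arrays, and the Mp1 shRNA arrays lay within 0.8 log2 units of each other. Pou3f1 (Oct6), a POU factor of the primed epiblast, read 10.69 on both Mp1 shRNA arrays and 6.86 and 7.50 in LIF (3.51 ± 0.23, adjusted p = 0.000123). Vrtn was at least 5.80-fold higher, and the kinesin gene Kif1a rose by 3.28 log2 units, with its other probe at 2.08. The remaining names were the ETS factor gene Etv4 (3.25), the tight junction gene Cldn6 (3.04), the chemokine gene Cxcl12 (3.02), the immunoglobulin-family membrane protein gene Emb (3.01) and Dnmt3b (at least 6.17-fold). Of the 61 named genes with other probes, 12 had a probe that departed by over 1 log2 unit from the one chosen, and those are given beside the gene.

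Among named genes, Spic had the largest fall. Spic, an ETS-family transcription factor gene, stood at 4.86 and 4.74 in Mp1 shRNA cells and 4.78 and 4.82 in control shRNA cells in FGF4, not well above background in either, against 9.68 and 9.74 in LIF and 9.51 and 9.46 without factor. It was at least 20.5-fold lower in Mp1 shRNA cells than in LIF (adjusted p = 8.16e-06), with its other probe at -3.35. The X-linked homeobox gene Rhox6 was at least 16.1-fold lower (4.74 and 4.66, not well above background, against 9.49 and 9.24), and its neighbour in the family Rhox9 fell by 4.72 log2 units (5.79 and 6.66 against 10.94 and 10.95, adjusted p = 8.32e-05). For all 3, the groups were separated by over 4 log2 units. Lrrc15, a leucine-rich repeat membrane protein gene, fell (-3.97), as did Sapcd1 (-3.85) and the pepsinogen gene Pga5 (-3.63). The probe chosen for 1700016D06Rik fell by 3.95, while its other probe stood at -0.21. Fam183b was at least 9.42-fold lower, Uroc1, a urocanase gene of histidine breakdown, at least 6.50-fold, Cabs1, a calcium-binding protein gene of spermatids, at least 5.90-fold, and the meiotic kinase gene Aurkc at least 5.74-fold, with its other probe at -1.40. Nupr1, a stress-induced chromatin protein gene, read 7.78 with shMp1Lib and 9.46 with shMP1G against 12.06 and 11.41 in LIF (-3.11 ± 0.48, adjusted p = 0.00403), so the Mp1 shRNA arrays differed from each other by more than 1.5 log2 units. All 24 of these genes kept their call whichever array was left out.

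**Figure D2:**
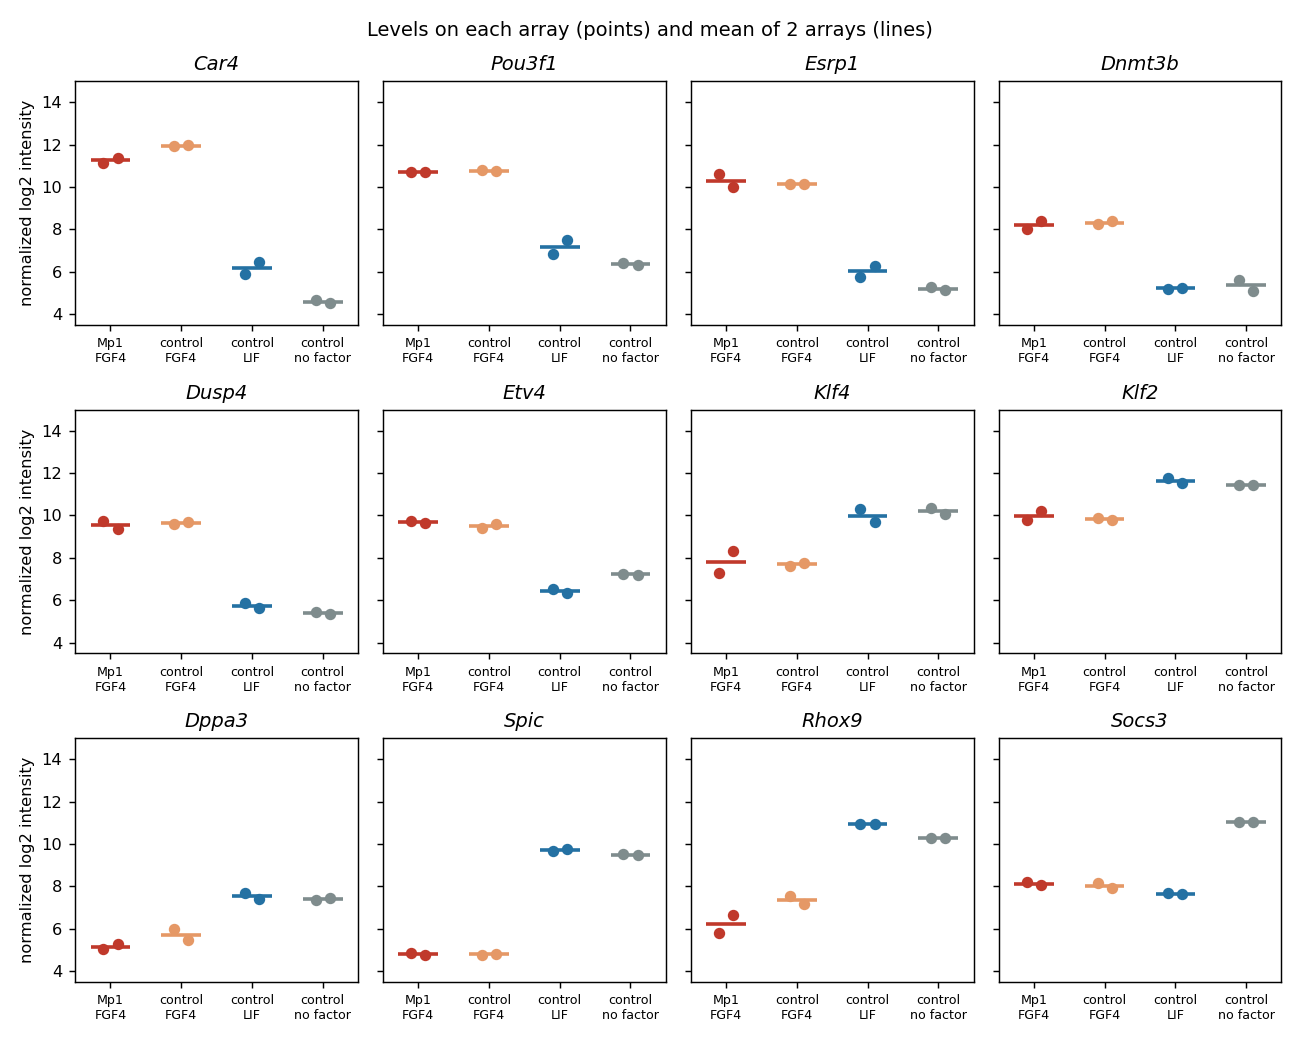
Normalized log2 intensity (y axis) of 12 genes on each of the 8 arrays (points) with the mean of each group (lines), for Mp1 shRNA in FGF4 and control shRNA in FGF4, LIF and no factor (x axis). Car4 reads 11.12 and 11.39 in Mp1 shRNA cells against 5.88 and 6.47 in LIF, Spic 4.86 and 4.74 against 9.68 and 9.74, and Socs3 is high on the arrays labelled no factor alone (11.04 and 11.01).

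Naive pluripotency genes were lower in Mp1 shRNA cells than in LIF: 6 of the 7 tested members (15 listed) fell and 0 rose. The median was -1.24 log2 units, against 0.03 over all features. All 7 read lower on both Mp1 shRNA arrays than on both LIF arrays, as did 28.3% of all features. Dppa3 (Stella), a maternal and germline factor, was at least 4.52-fold lower (5.05 and 5.26, not well above background, against 7.68 and 7.38; adjusted p = 0.000507). The Krüppel-like factor gene Klf2 read 9.78 and 10.21 in Mp1 shRNA cells and 11.75 and 11.52 in LIF (-1.64 ± 0.20, adjusted p = 0.00155). Tbx3, a T-box factor gene that promotes self-renewal, read 9.65 and 9.27 against 10.71 and 10.69 (-1.24 ± 0.19, adjusted p = 0.00396), with its other probes at -0.16, -1.63 and -1.86, and Klf4 fell as above. Their levels in Mp1 shRNA cells still lay well over background, unlike that of Dppa3. Pecam1, a surface marker of naive cells, read 5.90 and 5.76 against 7.16 and 6.75 (-1.13), and did not pass without the LIF shRnd1 array (adjusted p = 0.0869). Prdm14, a repressor of FGF signalling in ES cells, was at least 1.25-fold lower (detected on 1 of the 2 LIF arrays), with a call that held in 1 of the 8 fits that left out an array. Nr5a2, an orphan nuclear receptor gene that can drive Pou5f1, was not well above background in either group. Fits that left out 1 array gave 4 to 6 falls, the 4 without the LIF shRnd1 array. When only the 4 compared arrays were fitted, 3 fell, and with array weights per group 4 fell. Against the no-factor arrays, 6 of the 7 were lower as well (median -1.51). Klf5, Esrrb and Nr0b1 were below the filter on dim probes, and Nanog, Zfp42, Tfcp2l1, Tcl1 and Fgf4 are unnamed here.

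Formative and primed epiblast genes were higher, with 6 rises and 0 falls among 7 tested of 16 listed (median 3.04 log2 units), and each of the 8 fits that left out 1 array also gave 6 rises. Besides Car4, Esrp1, Pou3f1 and Cldn6, these were Dnmt3b and Sox4. Apart from Sox4 they are also among the largest rises named above. The list was chosen with earlier results of these data known, so its count is no independent support for a shift of such genes. Dnmt3b, a de novo DNA methyltransferase, stood at 8.00 and 8.41 in Mp1 shRNA cells and was not well above background in LIF (5.19 and 5.25). The SOXC factor gene Sox4 read 7.67 and 7.89 against 6.12 and 6.01 (1.72 ± 0.19, adjusted p = 0.00114), though its other probe stood at -0.23. The zinc finger gene Zic2 read 5.94 and 5.86 against 5.79 and 5.55 (0.23, adjusted p = 0.567), with its other probe at 1.22. The list kept 6 rises when only the 4 compared arrays were fitted and with array weights per group. Against the no-factor arrays the list also had 6 higher and 0 lower (median 3.61), and control shRNA cells in FGF4 had 6 higher and 0 lower than LIF (median 3.60). Dnmt3a, Sox3, Foxd3, Lef1 and Cdh2 were below the filter, and Otx2, Fgf5, Dnmt3l and Sall2 are unnamed here.

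General pluripotency genes did not move one way. Pou5f1 (Oct4), the core POU factor of pluripotent cells, read 14.01 and 13.83 in Mp1 shRNA cells and 13.57 and 14.05 in LIF (0.11 ± 0.21, adjusted p = 0.715), and Dppa5a read 14.41 and 14.46 against 14.55 and 14.51 (-0.10, adjusted p = 0.683). The groups overlapped for Pou5f1 and lay within 0.15 log2 units for Dppa5a. Of 10 tested members, 4 rose: Dppa4 (10.90 and 10.99 against 9.60 and 9.94; 1.18 ± 0.19), the RNA-binding protein gene Lin28a (1.12), Utf1 (1.07) and Dppa2 (0.77). Lefty2 and Lefty1, secreted inhibitors of Nodal, and the TGF-beta family gene Gdf3 fell, by 1.76, 1.38 and 0.81 log2 units. The Nodal coreceptor gene Tdgf1 did not pass (0.54, adjusted p = 0.154). Dppa4 and Lefty2 kept their call in all 8 fits that left out 1 array, Lin28a and Lefty1 in 7 (lost without the LIF shRnd1 array), Dppa2 in 3, Utf1 in 2 and Gdf3 in 1. The list median was 0.32, and it turned to -0.11 with arrays scaled by their medians, which left 3 higher and 3 lower. A fit of only the 4 compared arrays left 0 rises and 2 falls, and array weights per group left 2 rises and 2 falls. Against no factor, 4 of the 10 were higher and 1 lower (median 0.42). Lefty1 was not lower there: it read 8.41 and 8.71 in Mp1 shRNA cells and 8.05 and 7.78 without factor (0.64, adjusted p = 0.114), whereas Lefty2 was lower (9.34 and 8.92 without factor; -1.07, adjusted p = 0.0354) and Gdf3 did not pass (-0.60, adjusted p = 0.097). Nodal itself read 11.56 and 10.93 in Mp1 shRNA cells and 11.39 and 11.30 in LIF, and did not pass (-0.10, adjusted p = 0.785).

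Feedback and early response genes of the FGF/ERK pathway moved both ways. Of 15 tested, 8 rose, 3 fell and 4 did not pass (median 0.90), Myc among the rises. After Dusp4, Etv4 read 9.73 and 9.63 in Mp1 shRNA cells and 6.53 and 6.34 in LIF (adjusted p = 5.2e-05). Bhlhe40, a repressor of the bHLH family, was at least 4.11-fold higher (7.75 and 7.49 against 4.74 and 5.18, not well above background), and Spred1, an inhibitor of RAS-ERK signalling, at least 3.88-fold (7.41 and 7.66 against 5.38 and 4.97, not well above background). On both Mp1 shRNA arrays Etv4 and Spred1 stood near the levels of control shRNA cells in FGF4, which were 9.40 and 9.58 for Etv4 and 7.31 and 7.53 for Spred1. The immediate-early gene Egr1, a zinc finger factor, read 5.97 and 5.77 in Mp1 shRNA cells, 7.05 and 6.85 in control shRNA cells in FGF4, 7.93 and 7.86 in LIF and 8.73 and 8.82 without factor. Egr1 was lower than in LIF by -2.03 ± 0.18 (adjusted p = 0.000399), and Dusp14 (-1.72) and Ier3 (-1.29) also fell. Phlda1 and Phlda2 did not pass (0.91 and 1.11, adjusted p = 0.111 and 0.148), and for both the shMp1Lib array was more than 1 log2 unit below shMP1G (6.49 and 7.79 for Phlda1, 8.24 and 10.09 for Phlda2). With 1 array left out there were 5 to 9 rises, with 5 without either LIF array, and 2 to 3 falls. There were 4 rises and 2 falls when only the 4 compared arrays were fitted, and the same counts with array weights per group. Against no factor, 7 of the 15 were higher and 5 lower. Dusp6, Spry1, Etv1, Etv5 and Fosl1 are unnamed here, and Spry2 was below the filter.

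Of 11 tested FGF ligands, receptors and their partners, 3 rose, 1 fell and 7 did not pass. Fgfbp3, a secreted FGF carrier, was at least 3.25-fold higher (7.05 and 7.51 against 4.70 and 4.83, not well above background in LIF), and the intracellular FGF-like gene Fgf13 read 7.09 and 7.13 against 5.59 and 5.88 (1.38 ± 0.18, adjusted p = 0.00214). The glypican gene Gpc3 rose by 0.79 and Fgf10 was at least 1.42-fold lower, to a level not well above background. The Gpc3 call held in 1 of the 8 fits that left out an array, and the Fgf10 call in 7. The heparan sulfate carriers Gpc4 and Sdc1 did not pass (adjusted p = 0.0589 and 0.088). Fgfr2 was not well above background in either group, and Fgfr1, Fgfr3 and Fgfr4 were below the filter. Against no factor, 4 of the 11 were higher and 1 lower.

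In the list of the MP1 complex and the ERK cascade, 2 of 12 tested rose, 0 fell and 10 did not pass (median 0.03, and -0.18 with arrays scaled by their medians). Rragb, a Rag GTPase that Ragulator anchors to the lysosome, read 8.46 and 8.22 in Mp1 shRNA cells and 6.74 and 7.08 in LIF (1.43 ± 0.24, adjusted p = 0.00607), and Nras read 11.37 and 11.26 against 10.54 and 10.44 (0.83, adjusted p = 0.0127). Without the LIF shRnd1 array neither passed (adjusted p = 0.0554 for Rragb and up to 0.0636 for Nras, which was also lost without LIF shRnd2). The Ragulator subunits stood apart on 1 array: Lamtor2 read 8.68 with shMp1Lib and 11.04 with shMP1G against 11.69 and 11.08 in LIF (-1.52, adjusted p = 0.121), Lamtor4 read 10.05 and 11.91 against 12.47 and 12.20 (-1.36, adjusted p = 0.0893), and Lamtor1 read 9.50 and 10.30 against 10.75 and 10.46 (-0.71, adjusted p = 0.0933). For Lamtor2 and Lamtor4 the low reading is that of shMp1Lib, while shMP1G lay within 0.7 log2 units of the LIF arrays. Low readings with shMp1Lib were not particular to these genes. On that array the median lay -1.82 log2 units from the LIF mean for respiratory chain genes and -1.35 for mitochondrial ribosome genes. None of the other members passed: Rragd 0.73, Ptpn11 0.55, Map2k2 (MEK2) 0.08, Map2k1 (MEK1) -0.01, Araf -0.25 and Grb2 -0.58 log2 units, with adjusted p from 0.0597 to 0.965. Rraga, detected on 1 of the 2 Mp1 shRNA arrays and on neither LIF array, read 5.53 and 5.22 against 4.79 and 5.57 (adjusted p = 0.641). Of the 12, 8 had an unadjusted p under 0.05, and against no factor 1 was higher and 0 lower. Leaving out 1 array gave 0 to 3 rises, the 0 without the LIF shRnd1 array, and falls (3) only without shMP1G.

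Epithelial genes were higher in Mp1 shRNA cells than in LIF. Of 15 tested members of the epithelial junction list, 11 rose, 0 fell and 4 did not pass (median 1.19). No member read lower on either Mp1 shRNA array than on both LIF arrays, a count whose share over all features was not taken. After Esrp1 and Cldn6, the claudin gene Cldn3 was at least 2.48-fold higher (6.25 and 7.53 against 4.58 and 4.63, not well above background in LIF). The small GTPase gene Rab25, which directs apical recycling, read 7.97 and 8.93 in Mp1 shRNA cells, 9.42 and 9.29 in control shRNA cells in FGF4, and 6.26 and 6.29 in LIF (2.18 ± 0.29, adjusted p = 0.00214). The scaffold gene Tjp1 and Cldn7 did not pass (0.54 and 0.50, adjusted p = 0.0673 and 0.149). With 1 array left out, 7 to 10 genes rose and 0 fell, with 7 without the LIF shRnd1 array. Fitting only the 4 compared arrays left 6 rises, and array weights per group left 7, with 0 falls in both. Against the no-factor arrays, 8 of the 15 were higher and 0 lower.

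The list for surface ectoderm and simple epithelium had 13 tested genes, with 7 rises and 2 falls (median 0.97). Msx1, a homeobox gene that BMP induces, read 9.18 and 8.87 in Mp1 shRNA cells, 9.93 and 9.70 in control shRNA cells in FGF4, 6.71 and 6.35 in LIF, and 6.56 and 6.50 without factor. It rose by 2.49 ± 0.21 log2 units against LIF (adjusted p = 0.000333). The keratin gene Krt8 read 10.25 and 10.10 against 8.69 and 8.24 (1.71 ± 0.26, adjusted p = 0.00396). The 2 that fell are the epidermal factor gene Grhl3 (6.13 and 6.08 against 8.12 and 8.23; -2.07) and the GATA factor gene Gata3 (5.63 and 5.60 against 7.49 and 7.15; -1.71). Krt19 was not well above background in either group, and Tfap2c read 11.16 and 10.04 against 11.13 and 11.42 (-0.68, adjusted p = 0.172). Against no factor, 6 of the 13 were higher and 2 lower. The fits without 1 array had 5 to 6 rises and 2 to 3 falls.

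Of 8 BMP/SMAD targets, 2 were higher and 2 lower. Msx1 rose as above, and the HLH inhibitor gene Id1 read 12.07 and 12.97 in Mp1 shRNA cells against 11.61 and 11.40 in LIF (1.01, adjusted p = 0.0451), a call that held in 1 of the 8 fits that left out an array. Gata2, a GATA factor gene, fell by 2.51 ± 0.21 log2 units (6.19 and 5.64 against 8.44 and 8.41; adjusted p = 0.000381), as did Tbx3. Id3 and Id2 did not pass (0.91 and 0.38). Against no factor, 4 of the 8 were higher and 2 lower. All 8 arrays shared the BMP4 treatment.

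Of 7 tested genes of Nodal, Wnt and the primitive streak, 2 rose, 1 fell and 4 did not pass. The organizer homeobox gene Gsc fell by 2.34 ± 0.18 log2 units, reading 5.60 and 5.62 in Mp1 shRNA cells, 5.59 and 5.32 in control shRNA cells in FGF4, 7.84 and 8.05 in LIF and 9.30 and 9.26 without factor (adjusted p = 0.000259). Evx1, a homeobox gene of the posterior streak, read 8.79 and 7.40 against 6.51 and 6.48 (1.60, adjusted p = 0.0289), and held in 2 of the 8 fits that left out an array. Axin2, a Wnt target, was at least 1.22-fold higher (6.10 and 5.64 against 4.78 and 4.88, not well above background in LIF), and was lost without the LIF shRnd1 array (adjusted p = 0.0764). Wnt3 did not pass (adjusted p = 0.106), and Sp5 was not well above background in either group. Against no factor, 2 of the 7 were higher and 1 lower. Mixl1, Eomes, Mesp1, Cer1, Foxa2 and Tbx6 were below the filter.

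Of 9 mesenchyme and matrix genes, 3 were higher and 2 lower. The integrin gene Itgb5 (10.04 and 9.80 against 8.32 and 8.19; 1.67 ± 0.18) and the matrix protease gene Mmp2 (9.50 and 9.44 against 8.28 and 7.99; 1.33 ± 0.19) rose, and the laminin gene Lamb1 was at least 1.65-fold higher. The collagen IV gene Col4a2 (6.23 and 6.61 against 8.94 and 8.55; -2.33 ± 0.27) and the matrix glycoprotein gene Sparc (10.19 and 10.34 against 11.41 and 11.13) fell. Lamb1 did not pass without the LIF shRnd1 array (adjusted p = 0.0551). Among 13 actomyosin genes 3 rose and 1 fell: the tropomyosin gene Tpm1 read 10.63 and 10.46 against 9.58 and 9.39 (1.06 ± 0.17, adjusted p = 0.00519), Tagln2 rose by 1.14 (lost without LIF shRnd2, adjusted p = 0.0596), Lmna rose by 0.72 with a call that held in 0 of the 8 fits that left out an array, and Anxa1, detected on 1 of the 2 LIF arrays, was at least 1.13-fold lower (held in 3 of 8). Actb did not pass (0.69, adjusted p = 0.139). Of the actomyosin genes, 0 rose and 0 fell when only the 4 compared arrays were fitted, and 2 rose and 0 fell with array weights per group. Against no factor, 4 of the 9 mesenchyme genes were higher and 3 lower, and 1 of the 13 actomyosin genes was higher and 1 lower.

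Lineage lists outside the epiblast were mixed. In the trophoblast list, Krt8, Krt18 (1.32) and Ascl2 (0.81) rose, Rhox9, Rhox6 and Gata3 fell, and 4 of 10 tested did not pass, while the defining markers Cdx2, Eomes, Elf5, Hand1 and Tpbpa were below the filter. In primitive endoderm, 2 of 9 rose and 3 fell. The adaptor gene Dab2 was at least 3.61-fold higher (7.58 and 7.29 against 5.14 and 5.49, not well above background in LIF), with its other probe at 1.05, whereas Amn, an endocytic receptor partner, fell by 1.62 (6.31 and 6.81 against 8.30 and 8.05), and the endoderm factor genes Gata6 (adjusted p = 0.129) and Sox7 (-0.33, adjusted p = 0.443) did not pass. Of 6 neural genes, the SOXC factor gene Sox11 rose by 2.46 ± 0.17 (8.67 and 8.71 against 6.17 and 6.30; adjusted p = 0.000161), Map2 rose by 0.69, Gap43 fell and Ncam1, detected on 1 of the 2 LIF arrays, was at least 1.15-fold lower. Map2 held in 1 and Ncam1 in 2 of the 8 fits that left out an array. Nes and Tubb3 did not pass (adjusted p = 0.0527 and 0.624). Against no factor, 3 of the 10 trophoblast genes were higher and 3 lower, 2 of the 9 endoderm genes were higher and 2 lower, and 2 of the 6 neural genes were higher and 2 lower.

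Of 8 tested Hox genes (24 listed), 4 fell, 0 rose and 4 did not pass (median -0.69). All 8 read lower with shMP1G, and 5 with shMp1Lib, than on both LIF arrays, and the share of all features for 1 array was not taken. Hoxb7 read 5.32 and 5.51 in Mp1 shRNA cells, 5.63 and 5.37 in control shRNA cells in FGF4, 7.13 and 7.12 in LIF and 7.66 and 7.63 without factor (-1.71 ± 0.18 against LIF, adjusted p = 0.000836). Hoxa7 was at least 2.21-fold lower, Hoxc6 at least 1.65-fold and Hoxd9 at least 1.43-fold, each to a level not well above background in Mp1 shRNA cells. These genes were therefore tested only through the groups where they were detected. With the filter at a detection p-value under 0.01, 3 Hox genes were tested and 2 fell. The Hoxd9 call held in 5 of the 8 fits that left out an array. Against no factor, 4 of the 8 Hox genes were lower and 0 higher. Of 9 germline genes, 3 fell and 2 rose. The receptor tyrosine kinase gene Kit fell by 2.08 ± 0.21 (7.13 and 6.77 against 9.19 and 8.87; adjusted p = 0.000651), with its other probe at -0.41, and Dppa3 and Tex19.1 (-0.94) were also lower. Zscan4c, a gene of the 2-cell-like state, read 7.95 and 6.49 against 5.36 and 5.78 (1.65, adjusted p = 0.0322), and Taf7l rose by 1.08. Zscan4c was detected on 1 of the 2 LIF arrays. Zscan4c held in 1 and Taf7l in 3 of the 8 fits that left out an array. Against no factor, 3 of the 9 were higher and 2 lower.

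The interferon response list split: 6 of 16 tested rose, 4 fell and 6 did not pass (median 0.04, and -0.11 with arrays scaled by their medians). The immunoproteasome gene Psmb8 stood at 7.62 and 8.14 in Mp1 shRNA cells, 9.09 and 8.73 in control shRNA cells in FGF4, and was not well above background in LIF (5.22 and 5.42), at least 4.91-fold higher than in LIF (adjusted p = 0.000455), though its other probe stood at 0.46. The peptide transporter gene Tap1 (7.39 and 6.65 against 4.73 and 5.09) was at least 2.71-fold higher and Oasl2 (6.49 and 6.54 against 4.65 and 4.61) at least 1.91-fold, both against LIF levels not well above background. Those 3 and Irf1 belong to antigen processing and the response to interferon. Ifi27, detected on 1 of the 2 Mp1 shRNA arrays, fell by 2.60 ± 0.21 (5.36 and 5.39 against 8.25 and 7.71; adjusted p = 0.000298). The other falls were Ifitm1 (-1.52), Ifitm3 (-1.53) and Irf9 (-0.63). In 7 of the 8 fits that left out an array, 1 fall was left of the 4, and without shMP1G there were 6. Ifitm2 (12.30 and 13.79 against 14.18 and 14.16) and B2m (7.69 and 9.38 against 9.58 and 9.30) did not pass and were again lower with shMp1Lib than with shMP1G. Against no factor, 6 of the 16 were higher and 2 lower.

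Cholesterol synthesis genes rose in 6 of 11 cases, with 0 falls and 5 that did not pass (median 1.06). Idi1, an isomerase of the isoprenoid branch, read 7.19 and 6.67 in Mp1 shRNA cells and 5.60 and 5.40 in LIF (1.43 ± 0.22, adjusted p = 0.00379). Idi1 was detected on 1 of the 2 LIF arrays, as was Dhcr7. Dhcr7, the reductase of the last step, read 6.64 and 7.19 against 5.60 and 5.51 (1.36, adjusted p = 0.00489), Msmo1 read 11.16 and 10.69 against 9.56 and 9.66 (1.31, adjusted p = 0.0058), and Nsdhl rose by 1.38 (lost without the LIF shRnd1 array, adjusted p = 0.0938). Mvd and Ebp did not pass (0.53 and -0.48, adjusted p = 0.0593 and 0.168). The fits without 1 array had 5 to 6 rises and 0 falls, except for 2 falls without shMP1G. Fitting only the 4 compared arrays left 3 rises, and array weights per group left 5. Against the no-factor arrays, 4 of the 11 were higher and 0 lower.

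Of 14 p53 targets 3 rose and 0 fell, though the other probes of Bbc3 stood at 0.01 and -0.06, and those of Ccng1 at 0.47 and 0.72. Pmaip1 (Noxa), a pro-apoptotic BH3 gene, was at least 2.79-fold higher (7.20 and 6.93 against 4.77 and 4.89, not well above background in LIF; adjusted p = 0.000441). The calls of Ccng1 (0.92) and Bbc3 (0.61) held in 2 and 1 of the 8 fits that left out an array, and Cdkn1a did not pass (0.53, adjusted p = 0.0605). Of 14 glycolysis genes Eno3 (1.28) and Ldha (0.93) rose, with calls that held in 6 and 5 of the 8, and the list median of 0.17 turned to -0.24 with arrays scaled by their medians. The hypoxia list had 1 rise, the prolyl hydroxylase gene Egln3 (9.49 and 9.46 against 7.70 and 7.91; 1.67 ± 0.17), and 3 falls: Ankrd37 (-1.80), the carbonic anhydrase gene Car12 (-1.29) and Ndrg1 (-0.96), of which Ndrg1 held in 3 of the 8. Of 10 stress genes Ddit3 (Chop) fell by 1.96 (5.83 and 6.89 against 8.84 and 7.79; lost without the LIF shRnd1 array, adjusted p = 0.094), and Atf3 and Mt2 did not pass (adjusted p = 0.0695 and 0.0874). Against no factor, the higher and lower counts were 2 and 0 for p53 targets and 4 and 1 for glycolysis. They were 1 and 2 for hypoxia and 0 and 2 for stress. Over all features, 11.1% rose and 8.35% fell against LIF, and 8.12% were higher and 6.09% lower against no factor.

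Of 18 lysosome genes, the compartment on which MP1 sits, 3 rose, 0 fell and 15 did not pass (median 0.28). The dipeptidyl peptidase gene Ctsc was at least 2.76-fold higher (7.10 and 7.00 against 4.79 and 4.73, not well above background in LIF; adjusted p = 0.000242). Gusb rose by 0.95 (lost without the LIF shRnd1 array, adjusted p = 0.0679), and the call of Neu1 (0.62) held in 0 of the 8 fits that left out an array. Lamp2 and Atp6v0d1 did not pass (adjusted p = 0.0805 and 0.095), and other probes of Lamp2 stood between -0.77 and 0.33. Of 18 cell cycle genes 2 rose and 0 fell: the cyclin gene Ccnd2 was at least 1.62-fold higher (6.45 and 6.11 against 4.73 and 4.70, not well above background in LIF), though its other probes stood at 1.09 and -0.09, and the inhibitor gene Cdkn1c rose by 0.89, a call that held in 1 of the 8. Cdc20 did not pass (0.56, adjusted p = 0.0709). Against LIF, 11.1% of all features rose and 8.35% fell, so the 2 rises of 18 lie near that share. Against no factor the shares over all features were 8.12% and 6.09%. In the DNA methylation list, 1 of 5 tested rose (Dnmt3b) and 1 fell (Gadd45b, 5.56 and 6.44 against 8.32 and 7.84; -2.08 ± 0.30, adjusted p = 0.00287). Of 2 feeder markers, Thy1 and Ccn2, 0 passed with limma, at unadjusted p-values of 0.0827 and 0.0727. Against no factor, the higher and lower counts were 1 and 0 for the lysosome, 2 and 1 for the cell cycle, 1 and 1 for DNA methylation and 0 and 0 for the feeder markers (2 of their 2 at an unadjusted p under 0.05).

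The mitochondrial lists separated the Mp1 shRNA arrays. Of 40 tested respiratory chain genes, 0 passed with limma in either direction, and 21 had an unadjusted p under 0.05, although the median difference from LIF was -0.97 log2 units. On the shMp1Lib array the median of these genes lay -1.82 log2 units from the LIF mean and 38 of 40 read below both LIF arrays. On the shMP1G array the median lay at -0.24 and 26 of 40 read below both. The share of all features that read below both LIF arrays on a single Mp1 shRNA array was not taken, so these counts have no background beside them. Ndufa5, a complex I subunit, read 9.19 with shMp1Lib and 11.43 with shMP1G against 12.36 and 11.85 in LIF (-1.79 ± 0.60, adjusted p = 0.0695), and the complex II subunit gene Sdhb read 10.38 and 11.20 against 11.60 and 11.64 (-0.83, adjusted p = 0.0589). Of 39 mitochondrial ribosome genes, 1 fell, Mrps17 (10.16 and 10.86 against 11.68 and 11.30; -0.98 ± 0.26, adjusted p = 0.0331), with a call that held in 2 of the 8 fits that left out an array. Mrps5 and Mrps11 did not pass (adjusted p = 0.0519 and 0.0582). The list medians there were -1.35 with shMp1Lib and -0.19 with shMP1G. Without the shMP1G array the list medians were -1.82 for the respiratory chain and -1.35 for the mitochondrial ribosome, and without shMp1Lib -0.24 and -0.19. Such fits leave 1 Mp1 shRNA array, whose own spread cannot be taken, so their calls are not given for these lists. Against no factor, 0 of the 40 and 0 of the 39 passed in limma (4 and 6 at an unadjusted p under 0.05), with medians of -0.74 and -0.65. The shMp1Lib array was also the one with most probes detected, and the part of that in these readings was not tested.

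**Figure D3:**
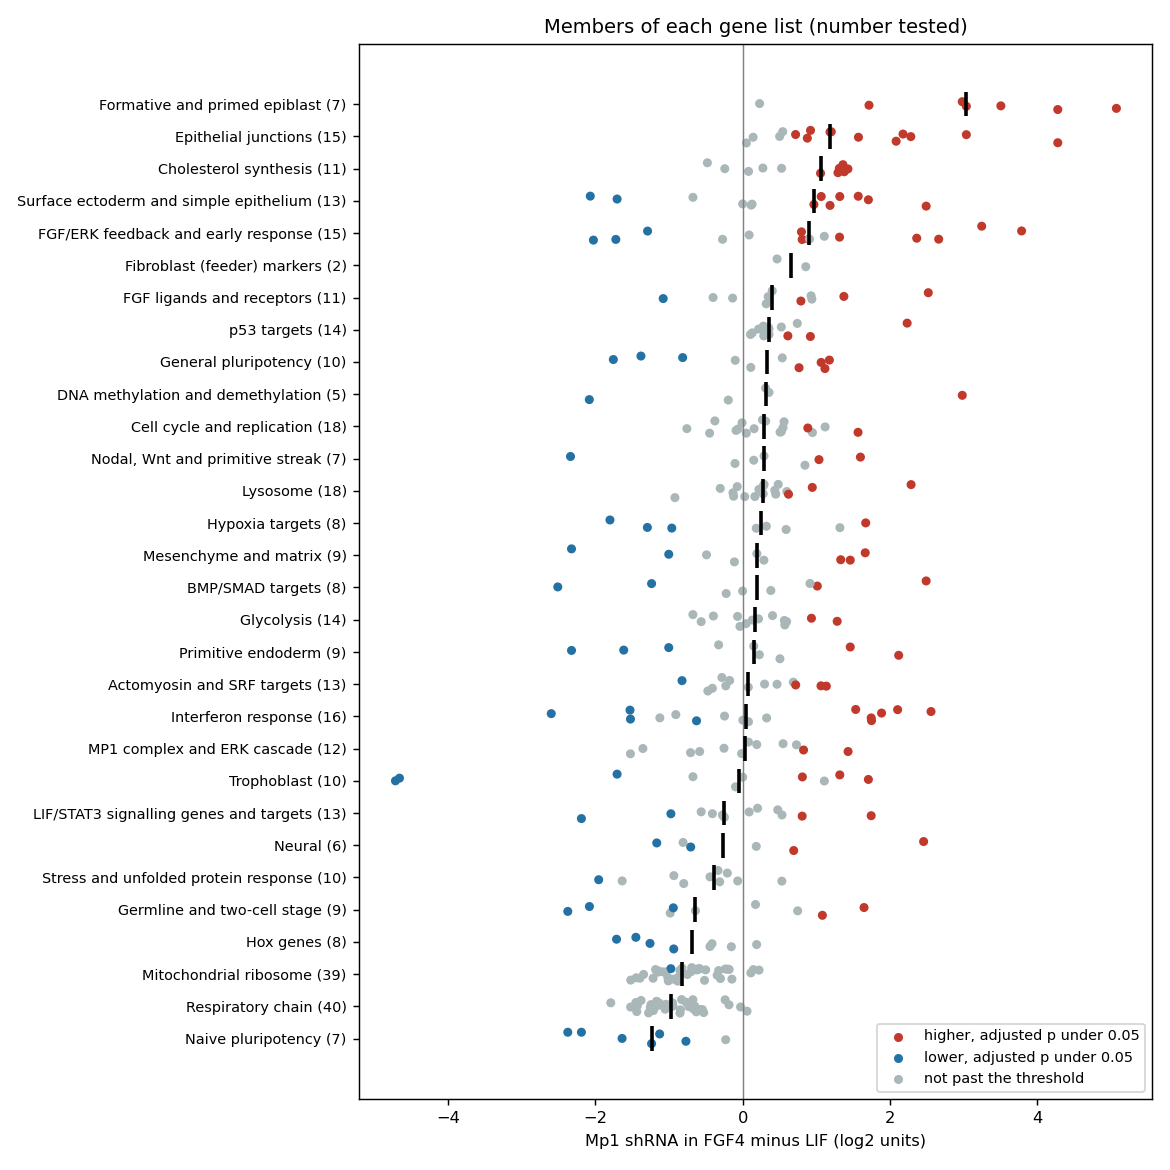
Difference between Mp1 shRNA cells in FGF4 and LIF (x axis, log2 units) for each tested member of the 30 gene lists (rows, with the number tested), coloured by whether it passed an adjusted p of 0.05, with the list median as a bar. Formative and primed epiblast genes lie highest (median 3.04) and naive pluripotency genes lowest (median -1.24). The lists were chosen with earlier results of these data known.

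**Figure D4:**
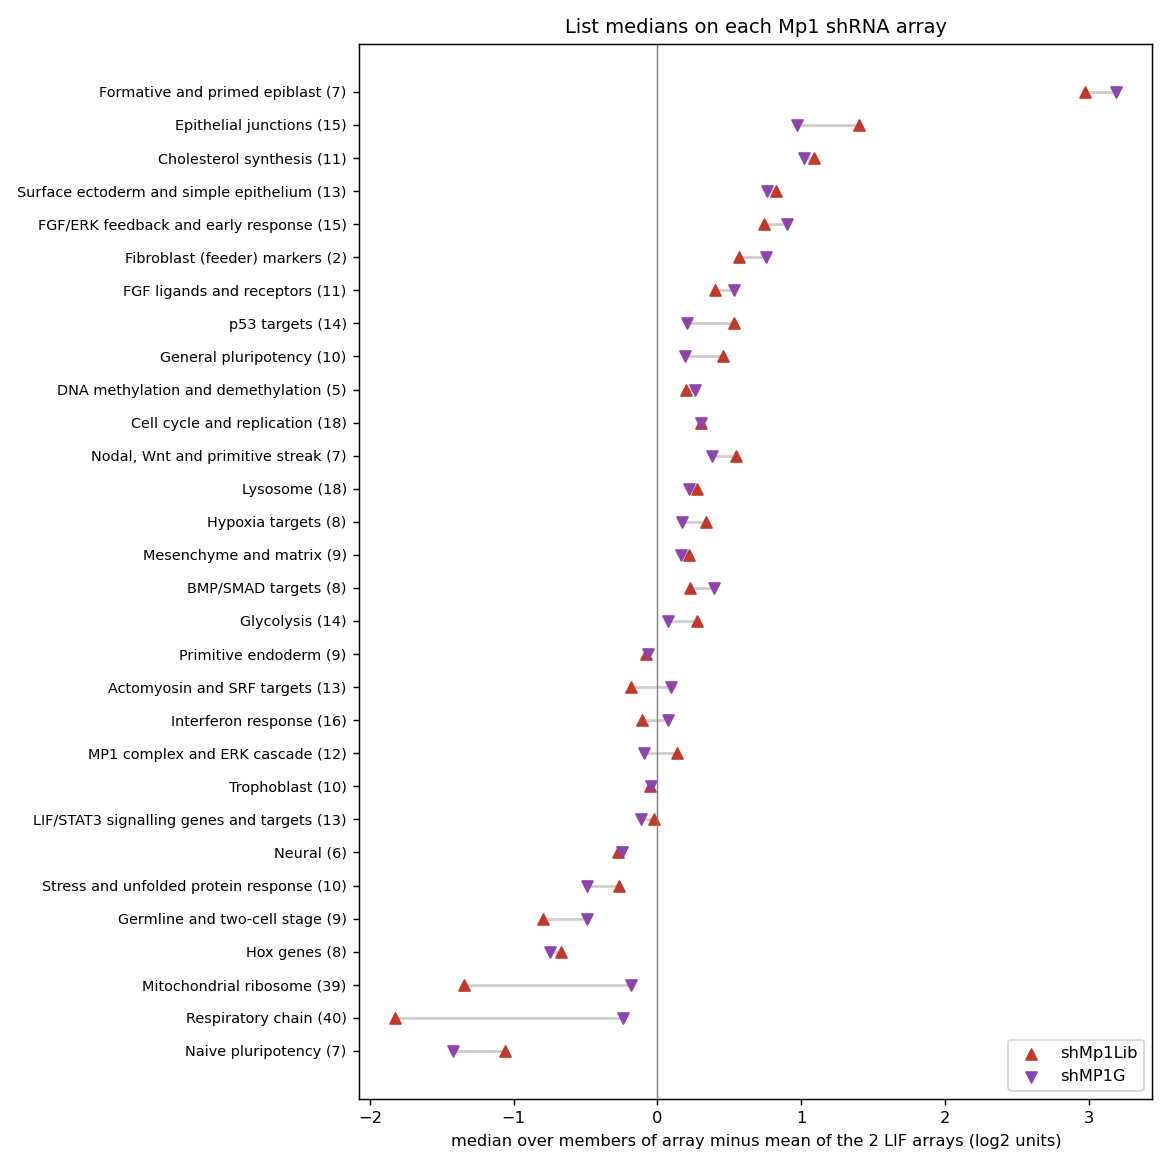
Median over the members of each list (rows, number tested in parentheses) of the level on the shMp1Lib or shMP1G array minus the mean of the 2 LIF arrays (x axis, log2 units). The arrays lie close for formative genes and far apart for the respiratory chain (-1.82 with shMp1Lib and -0.24 with shMP1G) and the mitochondrial ribosome (-1.35 and -0.19).

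Over all 30 lists, 352 genes were tested, of which 76 (21.6%) were higher and 42 (11.9%) lower in Mp1 shRNA cells than in LIF. Over all features the shares were 11.1% and 8.35%, and over the 8933 named features 9.19% and 9.48%. The lists were chosen with earlier results of these data known, so their larger share is no independent result. Leaving out 1 array gave 42 to 95 higher and 24 to 125 lower, the extremes being without the LIF shRnd1 array and without shMP1G. Of 107 genes named by the rule that passed, 71 passed whichever array was left out.

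Of named genes, 3 passed for the difference between the shRNAs under FGF4, and they stood differently beside LIF. The chemokine gene Cxcl16 read 5.96 and 6.23 in Mp1 shRNA cells, 7.80 and 7.50 in control shRNA cells in FGF4 and 4.86 and 4.91 in LIF, where it was not well above background, so Mp1 shRNA cells lay between the other groups, at least 1.43-fold above LIF (adjusted p = 0.00444). Gap43, which encodes a growth cone protein, read 6.35 and 6.31 in Mp1 shRNA cells, 7.75 and 7.59 in control shRNA cells in FGF4, 7.48 and 7.51 in LIF, and 6.55 and 6.42 without factor, and was lower than in LIF by -1.17 ± 0.17 (adjusted p = 0.00292). The myosin light chain gene Myl9 read 4.79 and 5.25 in Mp1 shRNA cells and 5.15 and 5.24 in LIF, not well above background in either, against 8.27 and 7.96 in control shRNA cells in FGF4. For Myl9 the Mp1 shRNA and LIF arrays overlapped (adjusted p = 0.564). Against control shRNA cells in FGF4, the calls of Cxcl16 and Gap43 were lost without either FGF4 control, LIF or no-factor array (adjusted p up to 0.517 for Cxcl16 and 0.542 for Gap43), and that of Myl9 without either FGF4 control or no-factor array (up to 0.0897). Cxcl16 was also lost without shMp1Lib (0.0536).

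Features absent from the deposited value table weigh on the balance of rises and falls. Of 2910 tested features whose probes are not in the deposited value table, and which are unnamed here, 596 (20.5%) were higher and 148 (5.09%) lower in Mp1 shRNA cells than in LIF, with a median difference of 0.50 log2 units. Of the 11193 features in that table, 968 (8.65%) were higher and 1030 (9.20%) lower, with a median of -0.09. The median of the 2910 features absent from the table lay 0.75 log2 units above the LIF mean on the shMp1Lib array and 0.25 on shMP1G. The excess of rises over falls in the whole comparison is seen neither among the features in the table nor among named genes, where 821 were higher and 847 lower.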

How the data were processed

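Transcript levels were measured on 8 Illumina mouse arrays, 2 in each of 4 groups, grouped by title. The deposited non-normalized table holds an intensity and a detection p-value per probe, per the file headers; upstream software is not given in the sources used here. Decimal points were lost in 294271 of 362248 intensities (81.2%) and were restored by the detection p-values. Of these, 207073 allowed 2 readings 10-fold apart, and the larger was taken where the detection p-value was 0; among intensities with an intact point, none below 109.55 had a p-value of 0 and none above 136.5 had one over 0. After restoration Spearman correlations of the p-values with intensity lay between -0.990 and -0.982. This is no independent check, because the same p-values chose between the readings. The deposited value table was an alternative only, because its probe IDs are at odds with its values: 80 ribosomal protein probes had a median percentile of 99.6 in the non-normalized table and 55.0 in the value table. GEO's platform annotation gave 1 symbol to 32245 probes, several to 17 and none to 13019. Columns that match no sample numbered 0.

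Arrays were corrected and quantile normalized with neqc (limma 3.58.1, R 4.3.3, offset 16), on the log2 scale. Probes were kept that 2 or more arrays detected (detection p-value below 0.05), with the brightest probe per symbol. A model of 4 group means over 8 arrays (4 residual and 4.18 prior degrees of freedom, 2-sided) was fitted with limma and eBayes, Benjamini-Hochberg adjusted over 14103 features at 0.05, and was tested on simulated data. A bound is the bright group's mean over, per array of the dim group, the higher of its own level and the lowest detected level. The number of arrays limits the precision. The titles repeat shRnd1 and shRnd2 in each control group, a pairing that the main fit leaves out. Deviations by shRnd number correlated at -0.0832, -0.0696 and 0.043 between these groups, so no shift shared by number was visible.

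The members and lists were chosen with earlier results of these data known. Genes named were the 12 largest rises and 12 largest falls among named genes that passed without overlap, up to 4 members of each list that passed and 2 that did not, the pluripotency, LIF/STAT3 and MP1/ERK lists, and those past in both comparisons of Mp1 shRNA cells with LIF and with control shRNA cells. Egr1, Dusp14, Ier3, Ifitm1, Ifitm2, Ifitm3, Irf9, B2m, Sparc, Krt18, Ascl2, Tex19.1 and Nodal were named after their values were seen. Alternatives covered background correction, scaling, filter, probes, arrays fitted, weights and the replicate block; the list counts, the fits that left out 1 array for them, and the normalization without probes absent from the value table were chosen after seeing the data.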

Additional observations from a re-analysis of the deposited data

Results flagged for a closer look

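A difference between the shRNA groups under FGF4 singled out 3 named genes, each lower in Mp1 shRNA cells than in control shRNA cells: Myl9 (-3.09 ± 0.21 log2 units, adjusted p = 0.00572), Cxcl16 (-1.55 ± 0.19, adjusted p = 0.0389) and Gap43 (-1.34 ± 0.17, adjusted p = 0.0389). Their calls depended on the settings. Of 18 alternatives, Myl9 kept its call in 13 (adjusted p from 0.00236 to 0.376; lost with 4 arrays only and without either FGF4 control or no-factor array), Gap43 in 6 (0.00552 to 0.582) and Cxcl16 in 4 (0.00541 to 0.582). The 9 features that were higher are unnamed here. The cause was not tested.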

How the results depend on the processing

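Against LIF, 1564 features were higher and 1178 lower in Mp1 shRNA cells in the main fit. The counts were 382 and 320 when only the 4 compared arrays were fitted, and 657 and 563 with array weights per group. They were 1094 and 806 with the replicate block (control arrays that share an shRnd name), and 1171 and 1501 with arrays scaled by their medians. Leaving out 1 array gave 500 to 3301 higher and 393 to 2781 lower. Where an Mp1 shRNA or LIF array is left out, the lone array is assumed to vary like the other groups. Of the 2742 calls, 701 were kept with 4 arrays only and 3 changed sign with the mean of all probes and 0 in the other fits compared feature by feature, which leave out the value table. Against control shRNA cells in FGF4 (9 higher, 5 lower), the counts were 1 and 1 with arrays scaled by their medians and with array weights, 0 and 0 with 4 arrays only, 0 and 1 with the block and without probes absent from the value table, 14 higher with the mean of probes, 16 and 0 with the value table, and 2 lower without background correction or without the filter. Leaving out 1 array gave 0 to 1219 higher and 0 to 1622 lower. Against no factor (1145 and 859), Mp1 shRNA cells had 545 and 444 with 4 arrays only, 728 higher with array weights, 828 and 630 with the block, and 421 to 2327 higher and 316 to 2238 lower with 1 array left out. Control shRNA cells in FGF4 against LIF gave 467 to 1643 higher and 476 to 1682 lower, and 880 and 824 with the block. For the listed genes, 42 to 95 were higher and 24 to 125 lower with 1 array left out. The group mean distance of Mp1 shRNA cells from LIF was 0.539 without background correction. For the differences of single named genes, counted once per alternative other than the value table, 2887 kept their side of the threshold, 291 fell short of it, 83 newly passed, and 0 changed sign with either value past it. The medians of some lists turned with arrays scaled by their medians, general pluripotency to -0.107 and glycolysis to -0.238 among them. Where calls were lost the cause was not tested. Dim probes had bounds only.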
